A study of Amphiprion ocellaris with 30 samples.

Results

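The genes raised by T3 only were 108 of the 22816 genes measured in larvae of the clownfish Amphiprion ocellaris (0.473%). They were chosen from group means of the deposited expression values. A gene belonged to them when its T3 mean lay at least 1 above its DMSO mean, its SR9243 mean lay within 0.25 of its DMSO mean, and it was not among the 200 genes with the highest overall mean. Below, T is the T3 mean minus the DMSO mean of a gene and S the SR9243 mean minus the DMSO mean. Both are on the authors' variance-stabilised scale, which approaches log2 for abundant genes and squeezes differences between scarce ones. The 200 most abundant genes began at a mean of 12.7, and leaving them out removed no gene that met the conditions on T and S. A pair of the 108 genes had identical means, SDs and ranges in T3, SR9243 and DMSO libraries, and both are counted throughout.

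Wild-type larvae were held at 27°C in sea water in beakers and given 1 of 3 treatments. For each treatment there were 10 libraries, from entire larvae taken on day 5. The titles write this day as 5dpt and give no age for the larvae. T3 libraries came from larvae given T3 at 1e-07 M, and their titles carry an unexplained tag, IOP, so T3 below means the larvae with that label. SR9243 libraries came from larvae given SR9243 at 1e-07 M, and DMSO libraries from larvae given the solvent dimethyl sulfoxide at 0.0001%. The labels do not say whether T3 and SR9243 larvae also received the solvent, or whether a library is 1 larva, so p-values measure the spread between these libraries. In RNA from entire larvae, fewer cells of a type and less RNA per cell cannot be told apart.

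T3, triiodothyronine, is the active thyroid hormone. It binds nuclear thyroid hormone receptors, which sit at their target genes and switch from repressing to activating them when the hormone is bound, and it drives the change from larva to juvenile in fish. SR9243 is listed by the series title among ligands that block LXR. The liver X receptor, LXR for short, is switched on by oxidised forms of cholesterol and controls cholesterol export and lipid synthesis. Most genes with a T of at least 1 also had a higher mean in SR9243 larvae. For the members, the choice itself fixed S within 0.25. The question is therefore how far an S near 0 held between libraries, and for genes chosen and measured in separate libraries. The table names genes by Ensembl ID, and 0 of its IDs could be paired with a symbol through a reference table of 28286 genes. The members' functions, sequences and positions, and the tissue markers of the larvae, were therefore not analysed here, and only the 2 members with the largest T are given by ID.

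Libraries of 1 treatment were not all alike, which bears on every mean below. Over all 22615 tested genes, the distance of a library from the mean of its group's other libraries (root mean square over genes) was 0.284 to 0.363 in T3, 0.276 to 0.372 in SR9243 and 0.292 to 0.72 in DMSO libraries, with DMSO library 7 the farthest and DMSO library 4 next at 0.437. Genes listed at the lowest value of the table, read as a count of 0, numbered 618 to 730 in T3, 592 to 705 in SR9243 and 558 to 701 in DMSO libraries. Libraries 1 to 5 also differed from libraries 6 to 10 within T3 and within SR9243. That division was known from earlier work on these data and is taken up below. Total counts per library are not in the table, so the depth behind each value is unknown.

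Few of the genes with a large T had an S near 0. Outside the 200 most abundant genes, 1099 genes had a T of at least 1, and their median S was 0.65. Of these, 978 had an S above 0.25 and 13 an S below -0.25. The bins next to the members were filled unevenly, with 247 genes (22.5%) at an S of 0.25 to 0.5 and 5 genes (0.455%) at an S of -0.5 to -0.25. The members thus made up the low-S side of a distribution centred well above 0, and within the window 88 members had a positive S and 20 a negative one.

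**Figure D1:**
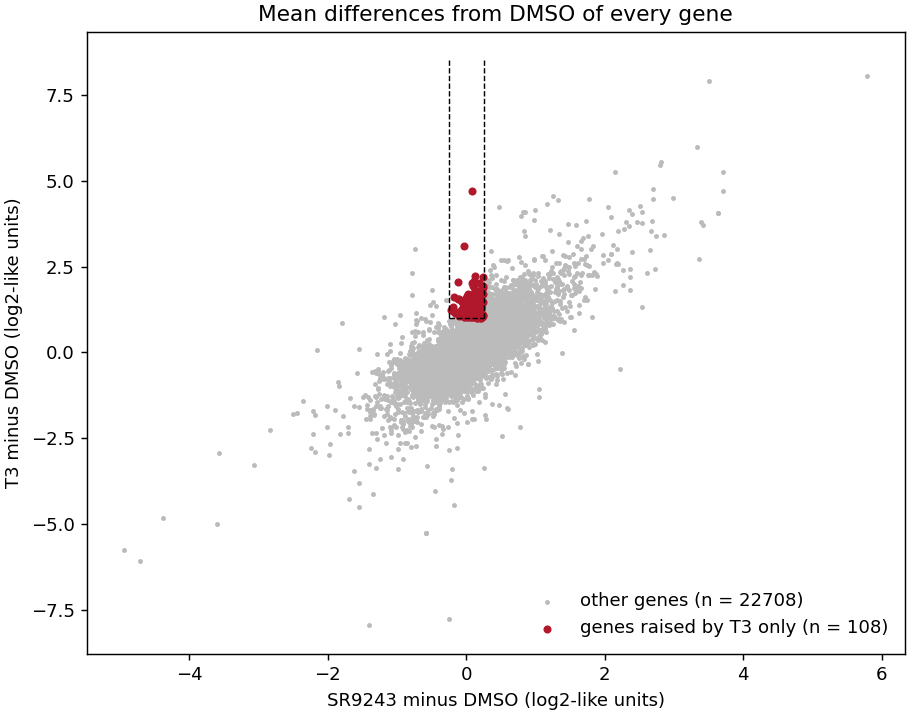
T3 minus DMSO (vertical axis) against SR9243 minus DMSO (horizontal axis) for every gene, in log2-like units. The 108 members are red, the dashed lines are the limits of the choice, and the grey cloud of other genes leans to the right above them.

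The member with the largest T was ENSAOCG00000020520, which separated T3 larvae from both other groups. Its values ran from 10.1 through a median of 10.6 to 11.01 in T3 libraries, from 5.55 through 5.97 to 6.73 in SR9243 libraries, and from 4.39 through 5.94 to 6.74 in DMSO libraries. The lowest T3 library stood above every SR9243 and DMSO library, and the SR9243 range lay within the wider DMSO range. Means were 10.6 ± 0.27 in T3, 5.97 ± 0.34 in SR9243 and 5.88 ± 0.65 in DMSO libraries (SD, n = 10 each). T was 4.70 (SE 0.19) and S was 0.09, with a 95% interval of -0.30 to 0.47. Without DMSO libraries 4 and 7, T was 4.47 and S was -0.14.

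ENSAOCG00000021849, the member with the next largest T, was far more uneven between libraries of the same treatment. It lay between 7.20 and 9.65 with a median of 8.25 in T3 libraries, between 4.34 and 6.16 with a median of 5.15 in SR9243 libraries, and between 3.57 and 7.46 with a median of 5.06 in DMSO libraries. T3 and SR9243 libraries did not overlap, whereas DMSO library 6 at 7.46 stood above T3 libraries 4 and 9 at 7.20 and 7.27. The means were 8.36 ± 0.96 in T3, 5.24 ± 0.55 in SR9243 and 5.26 ± 1.34 in DMSO libraries (SD, n = 10 each). T was 3.10 (SE 0.42). S was -0.03, but its 95% interval ran from -0.87 to 0.82, so a rise of up to 0.82 in SR9243 larvae lay within it. T was 2.23 within T3 libraries 1 to 5 and DMSO libraries 1 to 4, and 3.80 within T3 libraries 6 to 10 and DMSO libraries 5 to 10.

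**Figure D2:**
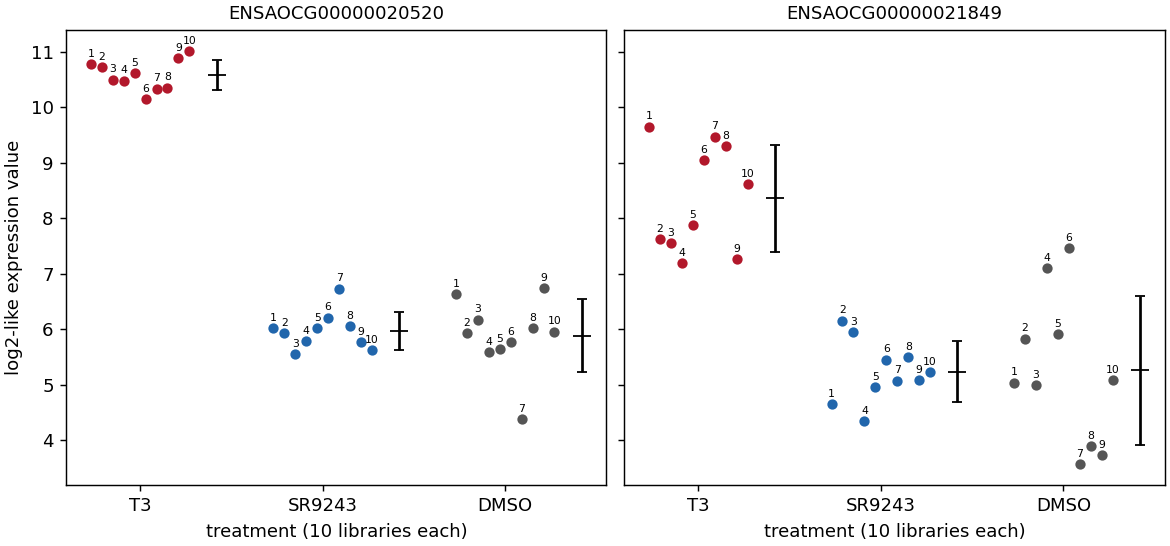
Log2-like expression values of the 2 members with the largest T in T3, SR9243 and DMSO libraries. Points are libraries with their numbers, and bars to the right of each group are the mean ± SD of 10 libraries. The left gene keeps all T3 libraries above 10.1, and the right gene spreads from 3.57 to 7.46 among DMSO libraries.

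Below these 2 genes, T was modest. It lay between 1 and 1.25 for 56 members (51.9%), between 1.25 and 1.5 for 21, between 1.5 and 2 for 23, and between 2 and 3 for 6. The median T over the members was 1.25, against a median of -0.01 over all tested genes, and the median S was 0.11, against -0.01. The SE of T, which equals that of S, was 0.172 in the median and ran from 0.0893 to 0.633. These sizes were fixed by the choice of members and carry no test.

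The members were spread over the range of expression. The median of their group means was 7.50 in T3, 6.06 in SR9243 and 6.03 in DMSO libraries. Over all tested genes the medians were 6.91 in T3, 6.88 in SR9243 and 6.85 in DMSO libraries, so the members lay below the typical gene in SR9243 and DMSO libraries and above it in T3 libraries. By terciles of the mean level of all tested genes, the members numbered 41 in the lowest, 40 in the middle and 27 in the top tercile. The share of genes with a T of at least 1 that were members was 15.4% in the lowest tercile, 9.3% in the middle and 6.4% in the top tercile. The base of these shares includes genes among the 200 most abundant, which could not be members, and this lowers the share in the top tercile. Differences of genes in the lowest tercile, at means below 6.04, are understated by the scale, and this applies to S as well as to T. At least 1 library was listed at the lowest value for 14 members. All 108 members passed the filter of a value above the lowest in at least 10 libraries, and 3 of them did so only because of their T3 libraries.

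**Figure D3:**
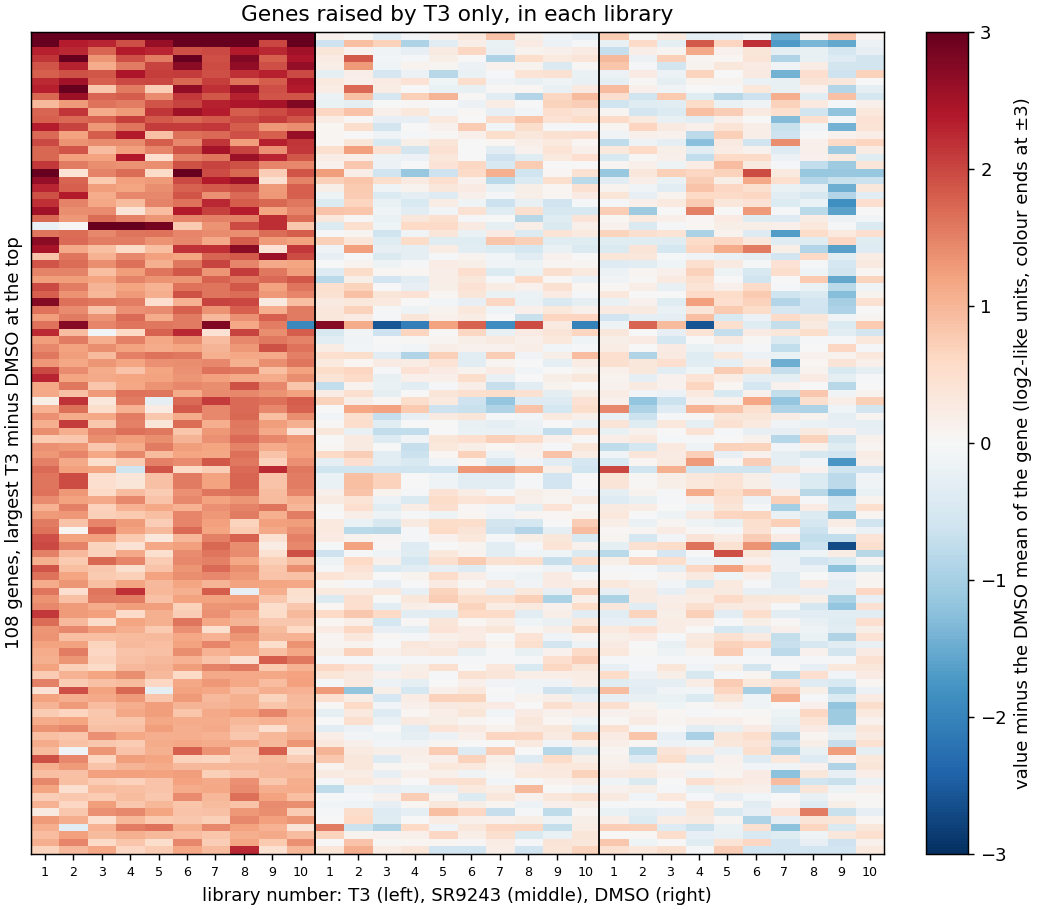
Value of each member in each library minus the DMSO mean of that gene, in log2-like units (colour, ends at ±3). Rows are the 108 members by falling T, and columns are T3, SR9243 and DMSO libraries 1 to 10 from left to right. The T3 block is red in nearly every cell, and DMSO library 9 is the bluest DMSO column.

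The limma fit over all 30 libraries called 107 of the 108 members higher in T3 than in DMSO larvae at a Benjamini-Hochberg adjusted p below 0.05, where 24.8% of all tested genes were called higher. It also called 107 members higher in T3 than in SR9243 larvae, where the share over all tested genes was 17.5%. It called 0 members higher and 0 lower in SR9243 than in DMSO larvae, where 15% of tested genes were called higher and 14.1% lower. At an unadjusted p below 0.05 in the same fit, 1 member differed between SR9243 and DMSO larvae, against 39.1% of tested genes. The choice used all 3 of these differences, so the counts describe the members and test nothing. The single member not called in the first 2 comparisons had a T of 1.41 (SE 0.63, limma adjusted p = 0.063). Its values spanned 4.30 to 9.01 in T3, 3.66 to 8.96 in SR9243 and 3.64 to 7.97 in DMSO libraries, and the 3 groups overlapped over most of that span.

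The libraries of T3 and the other treatments did not overlap for many members. The choice favours such genes, so the shares over all tested genes are given only as the background. Every T3 library stood above every DMSO library for 65 members (60.2%), against 7.08% of tested genes. Every T3 library stood above every SR9243 library for 64 members (59.3%), against 3.26% of tested genes, and above all SR9243 and DMSO libraries together for 54 members (50%), against 2.41%. No member had every SR9243 library above every DMSO library, against 1.19% of tested genes. The choice held S within 0.25, which makes such a separation less likely but does not forbid it.

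An S near 0 in the means left room for sizeable differences. The upper bound of the 95% interval of S was below 0.5 for 59 members (54.6%), and the same held for 78.8% of all tested genes. For the other members, an increase in SR9243 larvae of 0.5 or more lay within the interval. The choice kept S within 0.25, so the bound turned mostly on the SE. The intervals make no allowance for the choice, and these counts are a description. Many genes lay close to the limits on T and on positive S. T ran from 1.00 upward among members, and the nearest gene outside had a T of 0.99 with an S of 0.09. There were 31 members with a T within 0.1 above the limit and 43 genes within 0.1 below it. The highest S of a member was 0.248 and the next gene outside had 0.253, with 24 members and 38 outside genes within 0.05 of that limit. On the negative side the limit was sparsely filled, with 2 members and 1 outside gene within 0.05 of it. The lowest S of a member was -0.22 and the next gene outside stood at -0.29.

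Averaged over the 108 members, single libraries differed more than in their mean over all tested genes. A mean over few genes spreads more than a mean over 22615 normalised genes, and no other set of 108 genes was compared. The mean over the members was 7.15 to 7.58 in T3 libraries, 5.86 to 6.39 in SR9243 libraries and 5.53 to 6.22 in DMSO libraries. The mean over all tested genes was 6.89 to 6.92 in T3, 6.88 to 6.91 in SR9243 and 6.85 to 6.89 in DMSO libraries. DMSO library 9 was lowest or tied for lowest of its group in 48 of the 108 members and DMSO library 7 in 30, while the other DMSO libraries were so in 4 to 11. By distance, DMSO library 9 did not stand apart over all genes, at 0.367 from the other DMSO libraries. Its median over all tested genes was the lowest of all libraries, but only just, at 6.826 against 6.830 in DMSO library 7. The highest DMSO median was 6.865. Whether the low values of DMSO library 9 extended beyond the members was not tested. Over the members its distance was the largest of all libraries, at 0.881. SR9243 library 2 was the highest of its group in 36 members, and SR9243 library 3 was lowest or tied for lowest in 32. In T3, library 3 was the lowest in 25 members and library 1 the highest in 24. Such counts were not made over all tested genes, so they cannot be read as particular to the members.

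**Figure D4:**
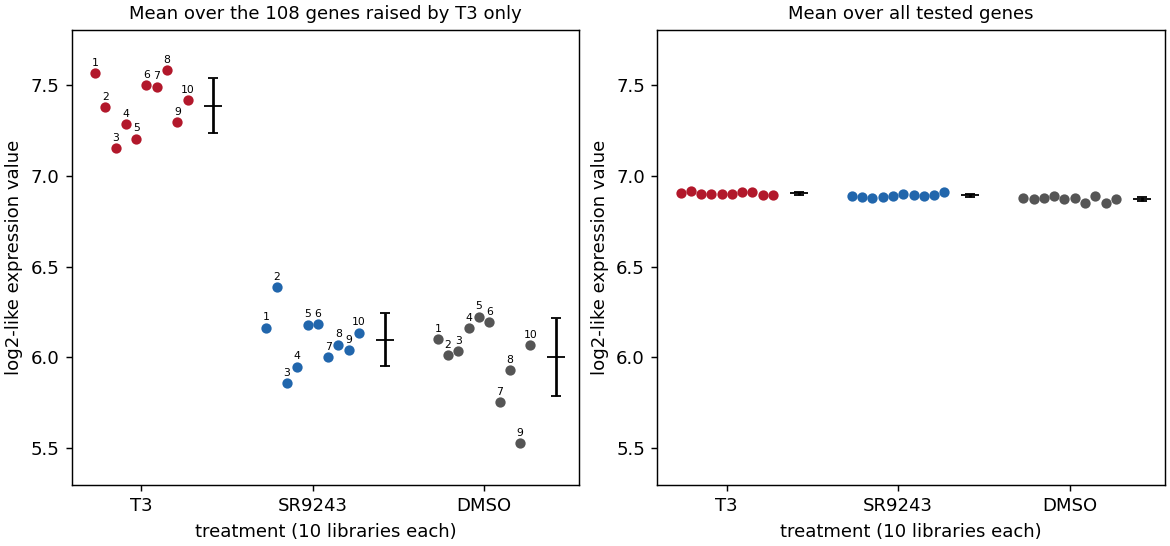
Mean log2-like value over the 108 members (left) and over all tested genes (right) in each T3, SR9243 and DMSO library. Points are libraries, numbered on the left, and bars are the mean ± SD of 10 libraries. Member means spread from 5.53 to 6.22 among DMSO libraries. Means over all tested genes, which average far more genes, stay between 6.85 and 6.92 in all 30 libraries.

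Which genes counted as members depended on single libraries. Without DMSO library 9, 117 genes met the conditions, of which 84 were members. The members' median T was then 1.20 and their median S 0.08, with 16 members below a T of 1 and 8 outside the window of S. Leaving out DMSO libraries 4 and 7 together gave 128 genes, of which 78 were members. Leaving out 1 library at a time gave 93 to 121 genes. Of the 108 members, 38 met the conditions without each of the 30 libraries in turn. DMSO libraries cost the most members, 12 to 24 each, against 1 to 9 for T3 and 5 to 19 for SR9243 libraries. The DMSO mean enters both T and S, whereas a T3 library moves only T and an SR9243 library only S.

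Differences between libraries of the same treatment do not enter the choice of members directly and could be tested. The DMSO mean enters both conditions, however. The limit on T favours a low DMSO mean and the upper limit on S a high one. DMSO libraries 7 and 9 were lowest or tied for lowest in 30 and 48 members. Both lie among libraries 6 to 10, so the DMSO difference is not free of the choice. Among T3 libraries, numbers 1 to 5 against 6 to 10 differed for 1 of the 108 members in the limma fit, against 3.15% of all tested genes (713 genes). That member had a T of 1.93 and was lower in libraries 1 to 5, where its mean differed by -0.95 (SE 0.20, adjusted p = 0.00389 in limma). At an unadjusted p below 0.05, 6 members (5.56%) and 11.4% of all tested genes differed. Among SR9243 libraries, 6 to 10 against 1 to 5 differed for 0 members by the adjusted p and for 6 (5.56%) by the unadjusted one. The shares over all tested genes were 3.82% and 15.9%. Among DMSO libraries, 1 to 5 against 6 to 10 differed for 0 members by the limma adjusted p and for 13 (12%) by the unadjusted one, against 0.0752% and 7.3% of all tested genes.

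The small differences between those libraries leaned one way over the members. The median difference of DMSO libraries 1 to 5 from 6 to 10 was 0.22 over the members and 0.01 over all tested genes, and it was positive for 86 members (79.6%) and for 52.8% of tested genes. Without DMSO library 9 the median was 0.14 over the members, and 77 were positive. In T3 libraries the same difference had a median of -0.14 over the members and -0.01 over all tested genes, and it was negative for 75 members (69.4%) and for 52.6% of tested genes. Members share libraries, and the DMSO lean is not free of the choice, so these counts are a description.

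The members' differences from DMSO were smaller in libraries 1 to 5 than in libraries 6 to 10. T and S share the same DMSO libraries, where members had a median 0.22 higher in 1 to 5 than in 6 to 10. Within T3 libraries the same median difference was -0.14. Within SR9243 libraries, 6 to 10 differed from 1 to 5 by a median of -0.01, so the change in S largely restates the DMSO difference. In libraries 1 to 5 of each group their median T was 1.12 and their median S 0.02. In libraries 6 to 10 the median T was 1.43 and the median S 0.20, and without DMSO library 9 these were 1.35 and 0.11. A T of at least 1 was found for 73 members in libraries 1 to 5 and for 103 in libraries 6 to 10. S lay within 0.25 for 81 and 61 members, and all conditions were met by 55 and 57.

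The choice was then made on 5 libraries of each group and the chosen genes were measured in the 5 others, which had no part in it. The division was made after these data had been seen. In earlier work on these data T3 libraries 1 to 5 resembled SR9243 libraries 6 to 10 and were put in a first set with DMSO libraries 1 to 4, so a division by number sets libraries of different sets against each other. Libraries 1 to 5 chose 176 genes, of which 55 were among the 108 members. In libraries 6 to 10 their median T was 1.31, close to the 1.24 at which they were chosen, and 153 of the 176 (86.9%) were called higher in T3 than in DMSO larvae by limma, against 16.2% of all tested genes. Their S did not stay near 0. It had a median of 0.51 in libraries 6 to 10, against 0.13 in the libraries that chose them, and it lay above 0.25 for 138 genes, within the window for 37 and below it for 1. Without DMSO library 9 the median was 0.44, with 126 genes above the window. SR9243 was called higher than DMSO for 44 of the 176 (25%), against 7.3% of all tested genes, and T3 higher than SR9243 for 109 (61.9%), against 7.2%.

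In the reverse direction, libraries 6 to 10 chose 133 genes, of which 57 were among the 108 members. In libraries 1 to 5 their median T was 0.96, against 1.26 where they were chosen, and 108 of the 133 (81.2%) were called higher in T3 than in DMSO larvae, against 20.7% of all tested genes. Their S had a median of 0.06 in libraries 1 to 5, with 69 genes within the window, 41 above it and 23 below it. With DMSO library 9 left out of the choice, 152 genes were chosen and their median S in libraries 1 to 5 was 0.14. SR9243 was called higher than DMSO for 15 (11.3%), against 12.4% of all tested genes. It was called lower for 7, but the share of all tested genes called lower was not counted, so the 7 cannot be read as many or few. T3 was called higher than SR9243 for 105 (78.9%), against 17.7% of all tested genes.

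For both choices by number, S in the measuring libraries was lower than that of genes chosen by T alone. The 1137 genes with a T of at least 1 in libraries 1 to 5 had a median S of 0.73 in libraries 6 to 10, above the 0.51 of the 176 genes. The 1166 genes chosen in the same way in libraries 6 to 10 had a median S of 0.52 in libraries 1 to 5, above the 0.06 of the 133 genes. In both groups of 5 libraries, 28 genes met all conditions.

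With the library sets of the earlier work in place of the numbers, S moved away from 0 in both directions of the comparison. The first set chose 105 genes, whose median S was 0.33 in the second set, against 0.11 where they were chosen. It lay above the window for 62 of them and within it for 38. The second set chose 155 genes, whose median S was 0.22 in the first set, against 0.12 where they were chosen, with 75 above the window and 64 within it. Genes with a T of at least 1 in 1 set, whatever their S, had a median S of 0.62 in the other set in both cases. No label gives a set for any library. In the earlier work on these data, T3 and SR9243 libraries were put in the sets by their resemblance and DMSO libraries by their values.

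**Figure D5:**
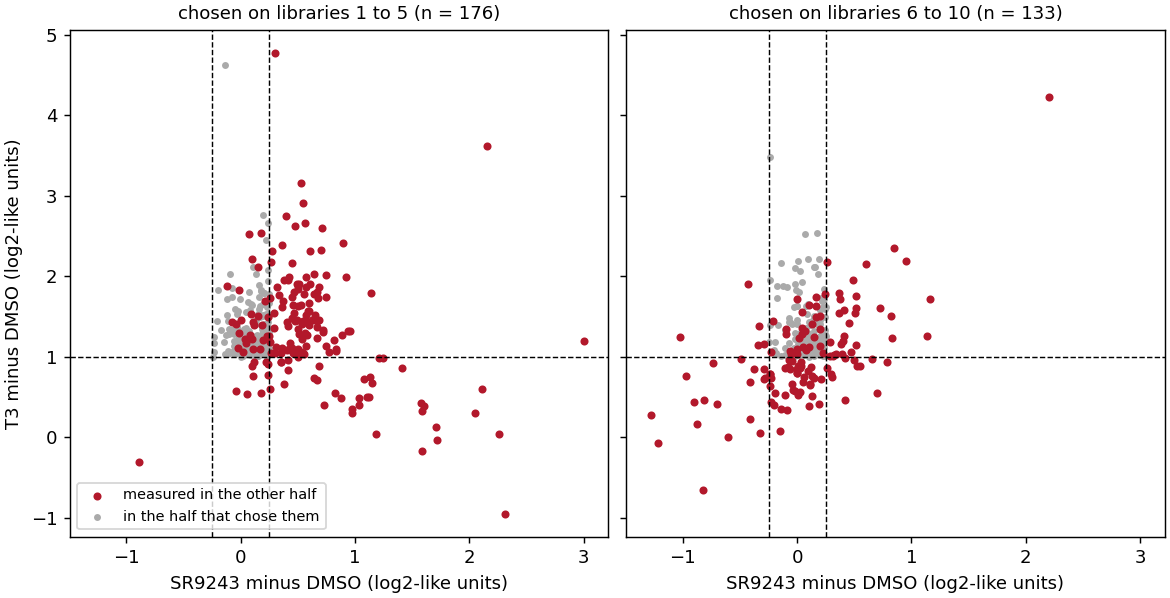
T3 minus DMSO against SR9243 minus DMSO, in log2-like units, for the 176 genes chosen on libraries 1 to 5 (left) and the 133 chosen on libraries 6 to 10 (right). Grey points are the values in the libraries that chose them, red points the values in the other libraries, and dashed lines the limits. On the left 138 of the red points lie right of the window of S, and on the right 41.

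The members varied together between libraries of the same treatment to a weak degree. The median correlation over the 5778 pairs of members was 0.12 in T3, 0.18 in SR9243 and 0.15 in DMSO libraries (10 libraries each), against 0.00 over all pairs of tested genes in each treatment. Positive correlations made up 60.7% of the pairs in T3, 66.9% in SR9243 and 64.3% in DMSO libraries. Without DMSO library 9 the DMSO median was 0.09, and without SR9243 library 2 the SR9243 median was 0.12. All pairs rest on the same few libraries, so these values describe these libraries.

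Members also varied more between libraries than the typical gene. The median SD of a member was 0.34 in T3, 0.34 in SR9243 and 0.47 in DMSO libraries, against 0.22 in T3, 0.23 in SR9243 and 0.29 in DMSO libraries over all tested genes. T3 libraries had the smaller SD of T3 and DMSO for 77 members (71.3%) and for 71.8% of all tested genes. Among the 978 genes with a T of at least 1 and an S above 0.25, the median SD was 0.27 in T3, 0.32 in SR9243 and 0.47 in DMSO libraries, and T3 had the smaller SD for 86.5%. The median difference of DMSO libraries 1 to 5 from 6 to 10 was 0.02 over those 978 genes. It was 0.54 over the 13 genes with a T of at least 1 and an S below -0.25, and positive for all 13, so a positive difference was not found for the members alone. The T3 difference between the same library numbers had a median of 0.01 over the 978 genes and of -0.49 over the 13.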

How the data were processed

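The deposited table holds, by its name, normalised counts after variance stabilisation, a log2-like unit, for 22816 genes in 30 libraries. Libraries were stranded and poly(A)-selected, per the labels' protocols. Per the submitters' processing notes, FastQC 0.11.8 and kallisto 0.46.1 were used. The tool that transformed the counts, the build and the annotation were not given in the sources used here. Groups and library numbers came from the sample titles, and 0 columns were left without a sample.

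Tested genes (22615, with 201 removed) exceeded the table's lowest value, 2.88, in 10 or more libraries. Because the values are not counts, no count model was used. One linear model a gene over the 3 groups was fitted in R 4.3.3 by limma 3.58.1, with treatment as the only factor and a mean-variance trend in eBayes, two-sided, with Benjamini-Hochberg adjustment over all tested genes and a threshold of 0.05. A second fit had a mean for each treatment and each of libraries 1 to 5 and 6 to 10. The fits were tested on simulated data. No library was treated as a copy of another (highest correlation within a group 0.987). Differences are T3 minus DMSO, SR9243 minus DMSO and T3 minus SR9243. The members, the gene lists and the division of libraries were chosen with earlier results of these data known. The gene lists and the rule for named genes by symbol could not be applied, as 0 IDs had a symbol, and the 2 members with the largest T are named instead. Alternatives changed the filter, the scaling, the variance model or the library weights, added a replicate block or library sets, or left out libraries.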

Additional observations from a re-analysis of the deposited data

Results flagged for a closer look

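Among the values of the 2 named members and the library distances over all genes, 3 stood apart by Dixon's criterion. Each was set against the other 9 libraries of its group, and chance meets the criterion in about 1 of 20 groups. ENSAOCG00000020520 lay at 4.39 in DMSO library 7. The distance of DMSO library 7 from the other DMSO libraries over all genes was 0.72. The distance of T3 library 2 from the other T3 libraries was 0.363, within the range of the SR9243 libraries. Applied to every member, the criterion marked a library for 6 members in T3 (5.56%), 12 in SR9243 (11.1%) and 14 in DMSO (13%). Over all tested genes the shares were 7.08% in T3, 5.17% in SR9243 and 14.7% in DMSO. The marks gathered in a few libraries, with SR9243 library 2 high for 8 members, DMSO library 9 low for 6, DMSO library 7 low for 4 and T3 library 1 high for 3. What sets these libraries apart was not tested.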

How the results depend on the processing

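The number of genes meeting the conditions was 103 with library medians set equal (85 of them members), 100 with quantile normalisation (87 members), 113 with the library set as a term (106 members), and 105 and 155 within the first and second library sets (45 and 59 members). The first set holds T3 libraries 1 to 5, SR9243 libraries 6 to 10 and DMSO libraries 1 to 4, the second set the rest, as described in earlier work on these data. Read on libraries 1 to 5 alone, the conditions gave 176 genes, on libraries 6 to 10 alone 133, and on libraries 6 to 10 without DMSO library 9, 152. Members called for T3 against DMSO numbered 93 to 108 over the alternatives and members called for T3 against SR9243 93 to 108. The lowest value came from testing only genes above the lowest value in all libraries, which removes 14 members. Members called for SR9243 against DMSO numbered 1 with library weights, 3 without DMSO libraries 4 and 7 (2 higher, 1 lower), 1 within the first set, and 0 to 1 when 1 library was left out, the 1 appearing without DMSO library 10. The other alternatives called 0. In the main fit this comparison called 15% of all tested genes higher and 14.1% lower. The choice held the members' S within 0.25, so these counts are a description. The shares over all tested genes with library weights and without DMSO libraries 4 and 7 are not given here.

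Over all genes, SR9243 against DMSO gave 6568 calls, with 3066 within the first set and 3648 within the second. T3 against SR9243 gave 7841 calls and 3359 within the first set. The sets hold fewer libraries. T3 libraries 1 to 5 against 6 to 10 gave 713 calls and 1158 with library weights. DMSO libraries 1 to 5 against 6 to 10 gave 17 calls, 6 with quantile normalisation and 10 with library weights. For these changes the cause was not tested. When 1 library was left out, calls ran from 11046 to 11635 for T3 against DMSO, 5852 to 7240 between SR9243 and DMSO, and 6908 to 8868 for T3 against SR9243. The labels give no pairing by library number. Deviations of same-numbered libraries correlated above 0.1 in 7 of 30 pairs. The correlations ran from -0.28, between T3 and SR9243 libraries 5, to 0.18, and differently numbered pairs were not compared. With the number as a replicate block, calls were 11131 for T3 against DMSO, 6197 between SR9243 and DMSO, and 7453 for T3 against SR9243, with 108, 0 and 107 members among them. The 2 named members kept their direction and their side of the threshold in both comparisons that involve T3, under every alternative run. Depth is unknown, and low values are compressed.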

Other observations

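With the treatments exchanged in the conditions, 3 genes had an S of at least 1 with a T within 0.25. SR9243 against DMSO gave fewer calls over all genes than T3 against DMSO, 6568 against 11430. Genes with an S of at least 1 were counted only among the 1099 genes with a T of at least 1. There, 197 had an S of 1 to 2 and 48 an S above 2. The 3 genes were thus a smaller share of genes with an S of at least 1 than the 108 members were of those 1099. This difference in shares was not tested. A T of at most -1 with an S within 0.25 was found for 78 genes. The median group means of those 78 genes were 7.32 in T3, 8.45 in SR9243 and 8.57 in DMSO libraries. Those of the members were 7.50 in T3, 6.06 in SR9243 and 6.03 in DMSO libraries. The lists were chosen for opposite T, which sets their means in T3 and DMSO libraries apart.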
